A study of Rattus norvegicus with 11 samples.

Results

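Insulin and IGF signalling was followed here through 9 genes: the receptors Insr and Igf1r, the receptor substrates Irs1 and Irs2, the PI3-kinase subunits Pik3r1 and Pik3ca, the kinases Akt1 and Akt2, and the transcription factor Foxo1. A gene was taken from probes that carry its symbol and no other, and its brightest probe on average was used. Of the 9 genes, 7 were measured in this way, among 14324 genes in all. Irs2 and Pik3ca were not analysed here. The measurements are log2 expression values of islet RNA from daughters of male Sprague-Dawley rats. HFD-father daughters (5 arrays) had fathers on pellets with 43% fat, and chow-father daughters (6 arrays) had fathers on laboratory chow with 9% fat. Fathers of both groups were paired, when 15 weeks old, with females kept on chow, all daughters were weaned onto chow at 3 weeks, and islets were taken at 13 weeks, so the daughters of both groups were kept on the same diet from weaning. The labels number the samples within a group without saying whether they are separate rats, litters or fathers, so p-values measure the spread between these samples, which may be technical.

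Insulin binds the insulin receptor, and IGF1 binds the closely related IGF1 receptor. Both receptors phosphorylate IRS proteins, which recruit PI3-kinase, and its lipid product brings AKT to the membrane, where it is activated. AKT phosphorylates FOXO1 and keeps it out of the nucleus. In beta cells this pathway is known for supporting beta cell mass and survival, and beta cells carry the receptors for the hormone they secrete.

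The 11 arrays correlated pairwise at 0.987 to 0.995 over all probes, with medians from 6.137 to 6.202. The sample numbers fall into a first deposited set of 8 arrays, 4 per group, and a second set of 3, with 1 HFD-father and 2 chow-father arrays. In every probe the mean over the second set equalled that over the first to within 5.83e-05, while over the 164 other ways to take 3 of the 11 arrays the median difference was at least 0.0495. Values had therefore been centred per set before deposit, which the labels do not mention. A difference within the second set rests on a single HFD-father array. Defining islet markers were near the top of the scale, with a mean log2 level of 14.26 for Ins1 and 14.04 for Gcg. The preparations also held exocrine RNA, since the acinar enzyme genes Cpa1 and Ctrb1 averaged 14.01 and 14.20. HFD-father replicate 1 had a lymphocyte marker mean of 1.50 above the average array, against -0.31 to 0.14 in the other HFD-father arrays and -0.42 to -0.03 in chow-father arrays. Arrays have no read depth, and their number limits the precision.

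Between HFD-father and chow-father islets none of the 7 genes passed the test. Differences (HFD-father minus chow-father, log2) ran from -0.03 for Akt1 to 0.07 for Insr, and every 95% interval included 0. At a limma adjusted p under 0.05, 0 of 7 genes were called, beside 0% of all 14324 genes. At an unadjusted limma p under 0.05 the count was also 0 of 7, beside 8.25% of all genes, with 0 of 7 higher beside 2.97% and 0 of 7 lower beside 5.28%. In simulated data with the same centring per set, 6.13% of unchanged probes fell under this limma threshold. The difference was above 0 in 3 of 7 genes, beside 51.9% of all genes, and below 0 in 4 of 7, beside 48.1%. An exact permutation test with group labels moved within the deposited sets likewise gave 0 of 7 genes under 0.05. The median absolute difference over the 7 genes was 0.03, beside 0.0611 over all genes. The HFD-father and chow-father ranges overlapped for each of the 7 genes, as the plot of values by array shows.

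**Figure D1:**
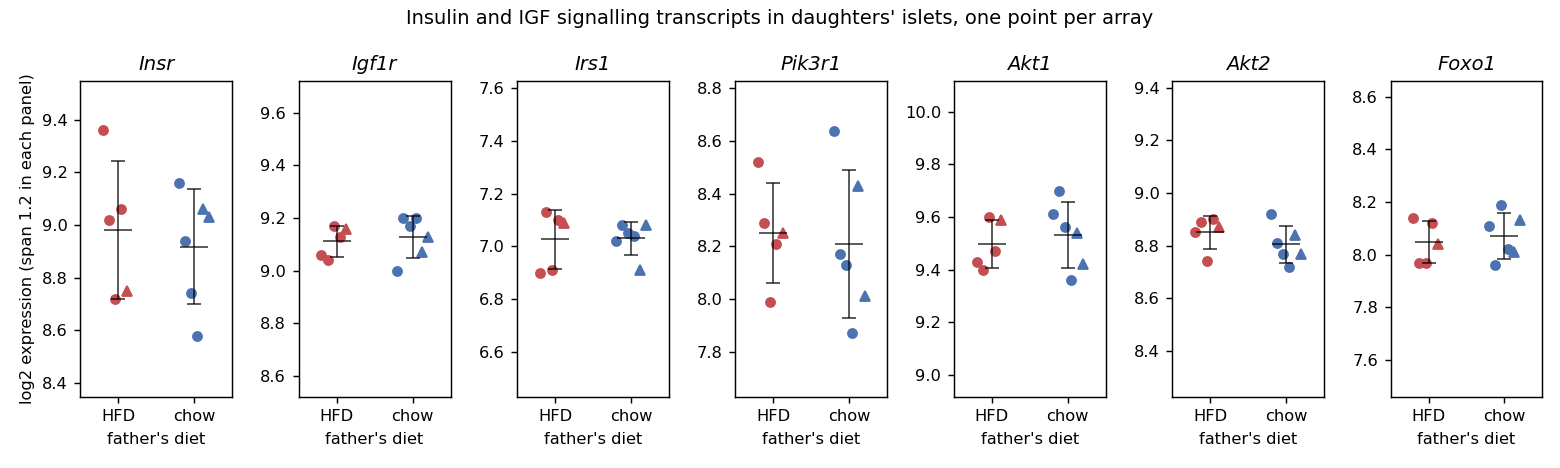
Log2 expression of the 7 measured genes by father's diet, with HFD-father arrays left (n = 5) and chow-father arrays right (n = 6); each panel spans 1.2 log2 units, circles are the first and triangles the second deposited set, and black marks give mean ± SD. The groups overlap in every panel, and Insr and Pik3r1 spread more widely than the other 5 genes.

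Insr encodes the receptor tyrosine kinase for insulin. Its log2 values were 9.36, 9.02, 8.72, 9.06 and 8.75 in HFD-father replicates 1 to 5, against a lowest of 8.58, a median of 8.99 and a highest of 9.16 in chow-father arrays. The highest value of all arrays was in HFD-father replicate 1 and the lowest in chow-father replicate 4, with the other HFD-father values inside the chow-father range. Means were 8.98 ± 0.26 (SD, n = 5) in HFD-father arrays and 8.92 ± 0.22 (SD, n = 6) in chow-father arrays, and the difference was 0.07 ± 0.13 (SE, limma adjusted p = 0.902). The 95% interval of the fold change, from 0.866 to 1.26, covers changes in either direction. The difference was 0.19 within the first deposited set and -0.29 within the second. Leaving out HFD-father replicate 1 gave -0.03, and leaving out HFD-father replicate 3 gave 0.13.

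A second probe for Insr gave a like picture. Its values were 7.97, 7.45, 7.22, 7.47 and 7.43 in HFD-father replicates 1 to 5, against a lowest of 7.17, a median of 7.42 and a highest of 7.80 in chow-father arrays. It again put HFD-father replicate 1 highest and chow-father replicate 4 lowest, and its group difference was 0.07 (interval -0.21 to 0.35, limma adjusted p = 0.896). Over the 11 arrays the 2 probes correlated at r = 0.91 and rho = 0.95 (permutation p = 1e-05, the smallest that 100000 resamples can give, and 8e-05), and at 0.81 without HFD-father replicate 1 and chow-father replicate 4. Both probes thus ranked the arrays in nearly the same order.

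The promoter of Insr is shown because it alone among the 7 genes held a match to the forkhead core to which FOXO proteins bind, GTAAACA, which on the opposite strand reads TGTTTAC. The windows searched were RefSeq promoters of the GRCr8 build, 300 bases each, from 250 before to 50 after a gene's start, and all 7 genes were matched by symbol. The 30 bases around the match, with the motif in capitals, lie at chr12:6128885-6128914 on the minus strand, and the motif begins 100 bases before the start used in that table. The annotated gene reaches further upstream than that start, so the match lies within the annotated span of Insr, and whether it is exonic or intronic was not resolved.
Insr forkhead match: acgggccgcgtTGTTTACtggccggagtcg
The same letters occur in 3.78% of 33469 promoters of this length, and in 2 of 17 promoters of the FOXO target genes listed here. One more motif searched on both strands, the insulin response core CAAAACA, was found in none of the 7 windows, beside 6.28% of all promoters and 3 of 17 FOXO target promoters. These matches are a description of sequence and were not tested for binding.

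Igf1r encodes the receptor for IGF1. It had log2 values of 9.06, 9.04, 9.17, 9.13 and 9.16 in HFD-father replicates 1 to 5, against a lowest of 9.00, a median of 9.15 and a highest of 9.20 in chow-father arrays. All HFD-father values lay within the chow-father range, and the whole span of the 11 arrays was small. Its means were 9.11 ± 0.06 (SD, n = 5) in HFD-father and 9.13 ± 0.08 (SD, n = 6) in chow-father arrays. The difference was -0.01 ± 0.05 (SE, limma adjusted p = 0.959), and the interval of the fold change ran from 0.915 to 1.07. The difference was -0.04 within the first deposited set and 0.06 within the second.

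Irs1 encodes the docking protein that links the receptors to PI3-kinase. Its log2 values were 6.90, 7.13, 6.91, 7.10 and 7.09 in HFD-father replicates 1 to 5, against a lowest of 6.91, a median of 7.05 and a highest of 7.08 in chow-father arrays. The HFD-father arrays lay at both ends, with 3 above the highest chow-father value and replicate 1, at 6.90, below the lowest. Means were 7.03 ± 0.11 (SD, n = 5) in HFD-father and 7.03 ± 0.06 (SD, n = 6) in chow-father arrays, and the difference was -0.01 (interval -0.13 to 0.12, limma adjusted p = 0.988). Within the deposited sets it was -0.04 and 0.09.

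Pik3r1 encodes p85 alpha, the regulatory subunit that holds PI3-kinase at tyrosine-phosphorylated IRS proteins. It had log2 values of 8.52, 8.29, 7.99, 8.21 and 8.25 in HFD-father replicates 1 to 5, against a lowest of 7.87, a median of 8.15 and a highest of 8.64 in chow-father arrays. All HFD-father values lay inside the chow-father range, whose ends were chow-father replicates 4 and 1. Means were 8.25 ± 0.19 (SD, n = 5) in HFD-father and 8.21 ± 0.28 (SD, n = 6) in chow-father arrays, with a difference of 0.04 ± 0.13 (SE, limma adjusted p = 0.949) and a fold interval from 0.846 to 1.25. Within the deposited sets the difference was 0.04 and 0.03. It was -0.03 without chow-father replicate 4 and 0.13 without chow-father replicate 1.

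The 250 bases upstream of Pik3r1 are shown because this gene held 7 matches to the GC box GGGCGG, which on the opposite strand reads CCGCCC, the letters bound by Sp1-type factors, given here in capitals. The stretch lies at chr2:34697661-34697910 (GRCr8, RefSeq, minus strand).
Pik3r1 upstream: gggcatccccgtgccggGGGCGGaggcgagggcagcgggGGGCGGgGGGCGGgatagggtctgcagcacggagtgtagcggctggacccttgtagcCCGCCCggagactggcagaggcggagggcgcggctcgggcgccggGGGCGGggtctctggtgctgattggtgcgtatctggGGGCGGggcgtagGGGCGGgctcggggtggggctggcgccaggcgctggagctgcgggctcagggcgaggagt
Irs1 had 3 such matches and Igf1r 1, while the windows of Insr, Akt1, Akt2 and Foxo1 held none, beside 33.1% of all promoters that held at least 1. The share of promoters with as many matches as Pik3r1 was not computed, so how unusual its number is was not shown.

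Akt1 and Akt2 encode the kinases activated downstream of PI3-kinase, of which Akt2 is known for the metabolic actions of insulin in muscle, fat and liver. Akt1 had log2 values of 9.43, 9.40, 9.60, 9.47 and 9.59 in HFD-father replicates 1 to 5, against a lowest of 9.36, a median of 9.55 and a highest of 9.70 in chow-father arrays. Its difference was -0.03 ± 0.07 (SE), with an interval from -0.18 to 0.12 and a limma adjusted p of 0.915. All HFD-father values lay inside the chow-father range, and the difference was -0.08 within the first deposited set and 0.12 within the second.

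Akt2 had log2 values of 8.85, 8.89, 8.74, 8.90 and 8.87 in HFD-father replicates 1 to 5, against a lowest of 8.72, a median of 8.79 and a highest of 8.92 in chow-father arrays. It had the lowest unadjusted limma p of the 7 genes (0.415), and 4 of 5 HFD-father arrays lay above the chow-father mean. Means were 8.85 ± 0.06 (SD, n = 5) in HFD-father and 8.81 ± 0.07 (SD, n = 6) in chow-father arrays, a difference of 0.04 ± 0.05 (SE, limma adjusted p = 0.824). The fold interval ran from 0.953 to 1.11, and the difference was 0.04 and 0.06 within the deposited sets. The two-sided exact permutation test within sets gave p = 0.319.

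Foxo1 encodes the forkhead factor that AKT restrains. Its log2 values were 8.14, 7.97, 7.97, 8.12 and 8.04 in HFD-father replicates 1 to 5, against a lowest of 7.96, a median of 8.06 and a highest of 8.19 in chow-father arrays. Both groups covered nearly the same span, with means of 8.05 ± 0.08 (SD, n = 5) in HFD-father and 8.07 ± 0.09 (SD, n = 6) in chow-father arrays. The difference was -0.02 (interval -0.15 to 0.10, limma adjusted p = 0.931), and -0.02 and -0.03 within the deposited sets.

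**Figure D2:**
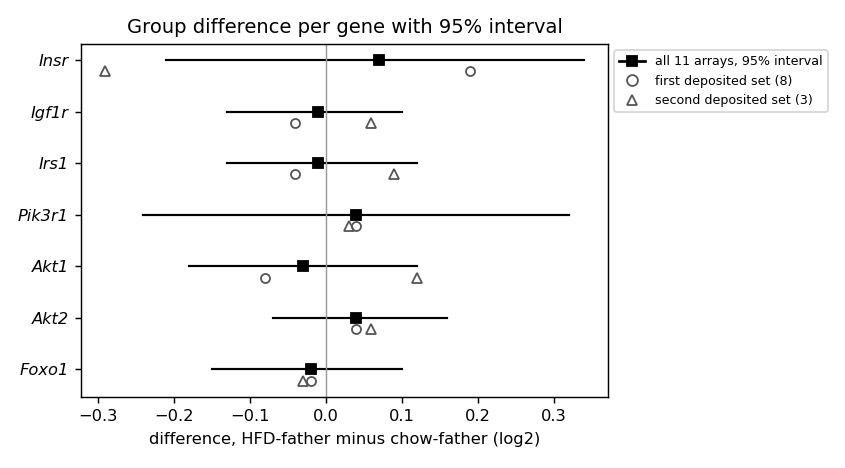
Difference in log2 expression, HFD-father minus chow-father, for the 7 genes; squares and lines give the limma estimate over 11 arrays with its 95% interval, open circles the first deposited set and open triangles the second. All 7 intervals cover 0, they are widest for Insr and Pik3r1, and the Insr difference is 0.19 in the first set and -0.29 in the second.

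The precision differed between the genes. The spread within groups was 0.237 (SD, log2) for Insr and 0.246 for Pik3r1, larger than that of 91.7% and 92.4% of all genes. It was 0.071 for Igf1r and 0.068 for Akt2, with 11.7% and 9.99% of genes less variable, against a median of 0.119 over all genes. Irs1, Foxo1 and Akt1 lay between, at 0.089, 0.086 and 0.111. The receptors for insulin and IGF1 thus stood near opposite ends of the range of variability between islet samples.

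Although the father's diet did not separate them, several of the 7 genes varied together from array to array. Of the 21 pairs, 4 passed by Pearson's r (Benjamini-Hochberg over the 21 pairs, permutation test), and 4 by Spearman's rho. The shuffles ran over all 11 arrays without regard to the centring per set, so these p-values may be too small. Insr and Pik3r1 ran in parallel, with r = 0.78 and rho = 0.81 (n = 11 arrays, permutation p = 0.00541 and 0.00392, adjusted p = 0.0351 and 0.0354). Pik3r1 and Akt2 also ran in parallel, with r = 0.82 and rho = 0.84 (permutation p = 0.00202 and 0.00206, adjusted p = 0.0212 and 0.0354). Chow-father replicate 1 was highest for Pik3r1 and Akt2, and chow-father replicate 4 lowest for Insr, Pik3r1 and Akt2.

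Igf1r ran the other way. Its r with Insr was -0.76 and its rho -0.77 (permutation p = 0.00669 and 0.00766, adjusted p = 0.0351 and 0.0402). With Pik3r1 its r was -0.84 and its rho -0.80 (permutation p = 0.00156 and 0.00506, adjusted p = 0.0212 and 0.0354). Arrays with more insulin receptor and p85 alpha transcript had less IGF1 receptor transcript, within a span of only 9.00 to 9.20 for Igf1r.

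These 4 relations kept their sign within the first deposited set of 8 arrays, with r = 0.90 for Insr and Pik3r1 (exact permutation p = 0.00223), 0.83 for Pik3r1 and Akt2 (exact p = 0.0102), -0.76 for Insr and Igf1r (exact p = 0.0339) and -0.88 for Igf1r and Pik3r1 (exact p = 0.00255). The second set has too few arrays for a value. Without the 2 arrays farthest from the median of the first-named gene of a pair, r was 0.61, 0.66, -0.74 and -0.80 in the same order. The arrays left out were thus not the same for every pair. Akt2 with Insr (r = 0.68, adjusted p = 0.0822) and Akt2 with Igf1r (r = -0.71, adjusted p = 0.0682) missed the threshold in the permutation test over the 21 pairs. Irs1, Akt1 and Foxo1 entered no pair that passed.

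**Figure D3:**
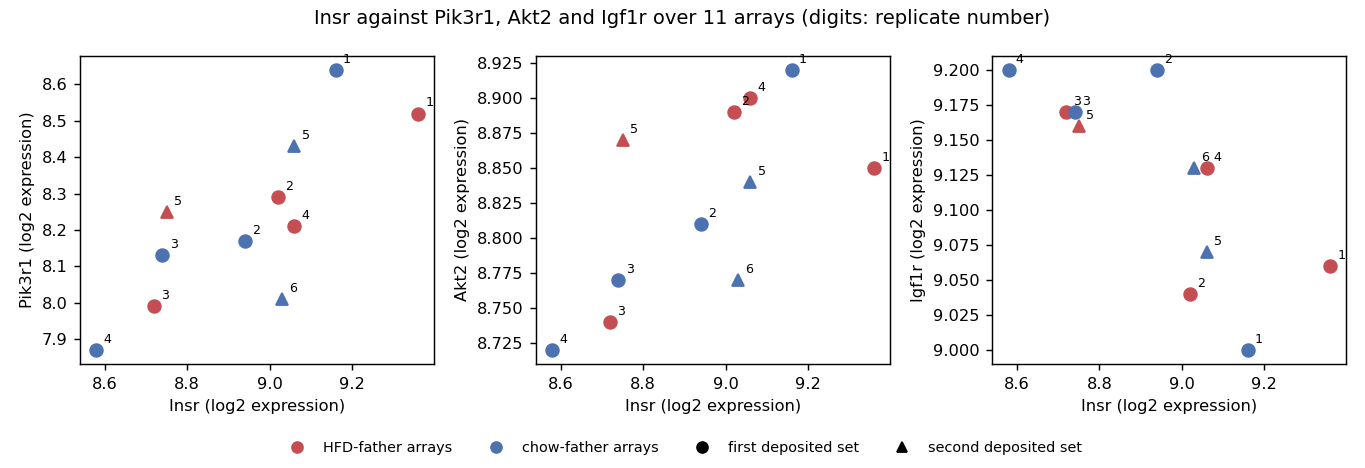
Log2 expression of Pik3r1, Akt2 and Igf1r (y axes) against Insr (x axes) in 11 arrays, with HFD-father arrays red, chow-father arrays blue, circles for the first and triangles for the second deposited set, and digits for replicate numbers. Pik3r1 and Akt2 are higher and Igf1r lower where Insr is higher, in arrays of both groups.

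Some of the 7 genes also correlated with cell type marker means by Pearson's r. Marker means are averages over the genes of a list, each centred on its mean over arrays, and 7 genes by 10 lists gave 70 relations. By Pearson's r 7 of the 70 passed after adjustment, and by Spearman's rho 0 did, with a lowest adjusted p of 0.0528 by the permutation test. The p-values over 11 arrays again disregard the centring per set and may be too small. Insr ran against the beta cell marker mean over Ins1, Ins2, Iapp, Slc2a2, Ucn3 and Slc30a8 at r = -0.93 and rho = -0.85 (n = 11, permutation p = 7e-05 and 0.00148, adjusted p = 0.0049 and 0.0528). It was -0.95 within the first set (exact permutation p = 0.00067) and -0.86 without the 2 outermost arrays. The beta cell marker mean spanned only -0.14 to 0.07 in HFD-father and -0.13 to 0.19 in chow-father arrays.

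Insr ran in parallel with exocrine markers. Its r with the mean of 9 acinar markers was 0.79 and its rho 0.85 (permutation p = 0.00139 and 0.00151, adjusted p = 0.0357 and 0.0528). With the 3 measured ductal markers (Krt19, Cftr and Muc1) its r was 0.83 and its rho 0.69 (permutation p = 0.00153 and 0.0229, adjusted p = 0.0357 and 0.229). Without the 2 outermost arrays these r values were 0.75 and 0.59. Pik3r1 also went with ductal markers (r = 0.78, adjusted permutation p = 0.0485) and against beta cell markers (r = -0.78, adjusted permutation p = 0.0485), and Akt2 with acinar markers (r = 0.72, adjusted permutation p = 0.0485). Without the 2 outermost arrays these r values were 0.61, -0.61 and 0.54. By rank the 3 relations did not pass, with rho = 0.62, -0.65 and 0.71 (adjusted permutation p = 0.274, 0.264 and 0.213).

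Igf1r had the opposite signs, with r = 0.68 for beta cell and -0.55 for acinar markers, but passed in neither (adjusted permutation p = 0.116 and 0.242). Foxo1 went against the mean of Sst and Ppy, the hormone genes of delta and PP cells (r = -0.75, rho = -0.76, adjusted permutation p = 0.0485 and 0.149). Its r was -0.63 once replicate 3 of each group was left out, and chow-father replicate 3 had the lowest Sst and Ppy mean of its group.

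In whole islet RNA, fewer cells of a type and less RNA per cell cannot be told apart. The acinar marker mean ran from -0.04 to 0.26 in HFD-father and from -0.78 to 0.27 in chow-father arrays, with chow-father replicate 4 at the low end. The ductal marker mean ran from -0.63 to 0.82 in HFD-father and from -0.88 to 0.62 in chow-father arrays. The endothelial marker mean ran from -0.11 to 0.25 in HFD-father and from -0.18 to 0.05 in chow-father arrays. All 9 acinar markers had a difference above 0 (median 0.18), beside 51.9% of all genes. Within the second deposited set the acinar markers except Rnase1 (0.05) were below 0, the lowest being Ctrb1 at -0.11. The 5 measured endothelial markers were all above 0 (median 0.11, from 0.10 to 0.18), as were the 5 measured lymphocyte markers (median 0.23). HFD-father replicate 1 weighed on the latter, with a lymphocyte marker mean of 1.50. The median of that mean was -0.16 in HFD-father and -0.14 in chow-father arrays. Within the second deposited set Cd2 was at -0.25, and the other lymphocyte markers were above 0. None of these markers passed the limma test. With the acinar marker mean as a covariate the group difference was -0.05 for Insr and -0.06 for Pik3r1, and with the endothelial marker mean it was -0.08 and -0.15. No difference of the 7 genes passed under either covariate. The acinar markers except Rnase1 lay near the top of the array's range (Ctrb1 14.20), as did Ins1 and Ins2 among the beta cell markers. Changes may be compressed there, which limits these marker means and the acinar covariate. The part of cell composition in the covariation was not tested.

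**Figure D4:**
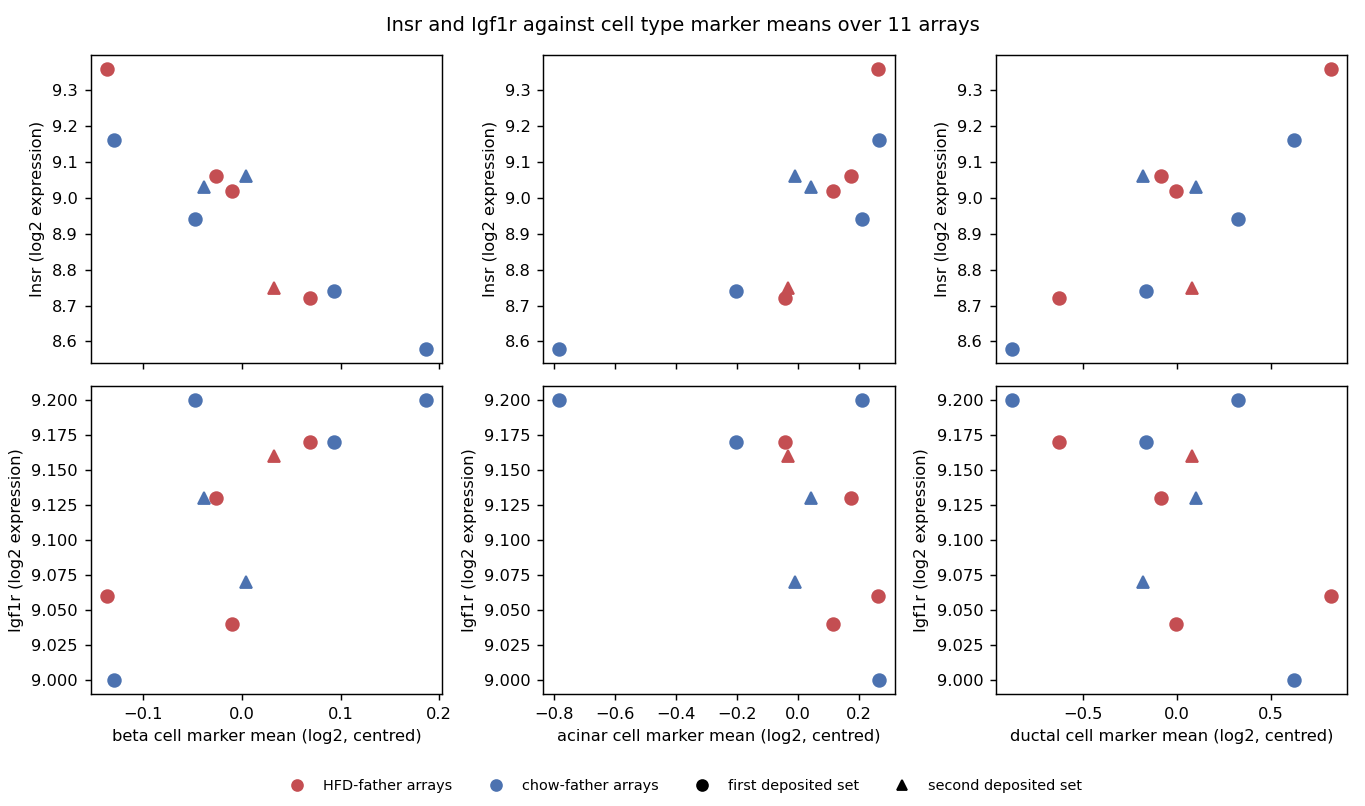
Log2 expression of Insr (top) and Igf1r (bottom) against the beta cell, acinar and ductal marker means (log2, each marker centred over arrays) in 11 arrays, HFD-father red and chow-father blue, circles first and triangles second deposited set. Insr is lower where beta cell markers are higher and higher where acinar and ductal markers are higher, while the Igf1r values follow less closely and with opposite sign.

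The genes whose patterns were most like each of the 7, by Pearson's r of group-centred values over 11 arrays and 1 probe per gene, were as follows. For Insr they were Prom2, a prominin of epithelial cell protrusions (r = 0.971), and Tgfb3, a growth factor of the TGF-beta family (0.970). For Pik3r1 they were Serinc5 (0.970) and the cell cycle kinase gene Cdk6 (0.963), and for Igf1r Iqub (0.937) and Habp4 (0.936). For Irs1 they were Psmd10, a proteasome assembly chaperone (0.939), and Odf2l (0.934). Akt1 was most like Sf3a1, a splicing factor (0.961), and Tekt1, a tektin of cilia (0.913), and Akt2 most like Eif4b, a translation initiation factor (0.965), and Wipi1, which acts in autophagy (0.950). Foxo1 was most like Rbm45 (0.967) and Angel1 (0.918). These are the top of 14324 genes over 11 arrays and are given as a description.

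The rest of the pathway was covered by 83 further genes in 8 lists by role, of which 74 were measured. None passed the limma test adjusted over all probes, where the lowest value among them was 0.5. At an unadjusted p under 0.05 there was 1 gene of 74, which was lower, beside 5.28% of all genes lower. Of the 74 genes, 46 had a difference above 0 and 28 below, where 51.9% of all genes were above, and their median difference was 0.02. Over all genes without the dim probes (mean below the median probe) the median difference was also 0.02.

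That gene was Socs3, a cytokine-induced inhibitor that also acts on the insulin receptor and IRS proteins. It averaged 6.08 ± 0.13 (SD, n = 5) in HFD-father and 6.24 ± 0.07 (SD, n = 6) in chow-father arrays, a difference of -0.15 ± 0.06 (SE, limma adjusted p = 0.5). Its values ran from 5.97 to 6.28 in HFD-father and from 6.14 to 6.32 in chow-father arrays, so the groups overlapped. The difference was -0.16 within the first deposited set and -0.13 within the second. The negative regulators, Socs3 among them (12 of 13 measured), had a median difference of 0.04. Inpp5d, an inositol phosphatase of blood cells, differed by 0.17 (interval -0.05 to 0.39), and by 0.11 without HFD-father replicate 1. Socs1, another inhibitor of the Socs3 family, differed by -0.12 (interval -0.37 to 0.12). The Socs1 value became -0.20 when HFD-father replicate 3 was left out, and -0.19 when chow-father replicate 5 was.

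The ligands and binding proteins (13 genes, median difference 0.00) included Ins1 and Ins2, the insulin genes, which differed by 0.01 (interval -0.09 to 0.11) and 0.00 (interval -0.10 to 0.10). Both insulin probes lay at the top of the array's range, with means of 14.26 and 14.29 and SDs of 0.03 to 0.05 within groups, where changes may be compressed, so these narrow intervals do not bound the change in insulin transcript. Igfbp5, an IGF-binding protein, averaged 6.41 ± 0.44 (SD, n = 5) in HFD-father and 6.14 ± 0.52 (SD, n = 6) in chow-father arrays. Its difference of 0.27 had an interval from -0.27 to 0.81, was 0.42 within the first set and -0.16 within the second, and was 0.14 without HFD-father replicate 1 or without chow-father replicate 4. It was 0.43 without HFD-father replicate 3 or without chow-father replicate 5. Igfals, which stabilises circulating IGF complexes, differed by -0.18 (interval -0.37 to 0.02), and Igf2r, the clearance receptor for IGF2, by -0.11 (interval -0.28 to 0.06). The Igf2r difference was -0.06 without HFD-father replicate 1. Igf1, the ligand of Igf1r, differed by 0.13 (interval -0.30 to 0.56). Ins1, Ins2 and Igf1 fall outside the rule for named genes and were added after their values were seen.

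Receptor adaptors (8 of 10 measured) had a median of 0.00, with Crk at 0.06, Gab1 at -0.08 and the IRS family member Irs3 at -0.09. Without HFD-father replicate 1 Gab1 was at -0.05, and without HFD-father replicate 2 Irs3 was at -0.02. Further PI3-kinase subunits (6 of 7 measured) had a median of 0.06. Pik3c2b, a class II PI3-kinase, differed by 0.22 (interval -0.02 to 0.46, limma adjusted p = 0.56), by 0.34 within the first set and by -0.11 within the second, and by 0.13 without HFD-father replicate 1. The catalytic subunit gene Pik3cb differed by -0.09 (interval -0.20 to 0.03) and the regulatory subunit gene Pik3r3 by 0.09 (interval -0.10 to 0.29), and Pik3r3 reached 0.17 when HFD-father replicate 1 was dropped, or 0.14 when chow-father replicate 2 was. The median of this list was -0.01 within the first set.

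At the level of AKT (4 of 5 measured, median 0.02), Sgk1, a kinase related to AKT and activated by the same lipid signal, differed by -0.14 (interval -0.30 to 0.02, limma adjusted p = 0.575). Gsk3b and Gsk3a, kinases that AKT inhibits, differed by 0.07 and 0.04, with ranges of 0.03 to 0.09 and 0.01 to 0.06 when each array was left out in turn. The mTOR branch, which couples AKT to protein synthesis (11 of 14 measured, median 0.02), was narrow, from -0.06 for the ribosomal protein gene Rps6 to 0.07 for Mlst8, a subunit of both mTOR complexes, with Eif4e, the cap-binding factor, at 0.03. With each array left out in turn Rps6 ran from -0.10 to -0.02, Mlst8 from 0.05 to 0.11 and Eif4e from 0.02 to 0.06.

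Foxo3 and Foxo4, the other FOXO genes measured (2 of 3), differed by -0.15 (interval -0.36 to 0.05) and 0.01, and Foxo3 by -0.09 without chow-father replicate 1. The 19 FOXO target genes, compiled mainly from work in liver and muscle, had a median of 0.03, with 10 above and 9 below 0. Bnip3, a mitochondrial regulator of cell death and mitophagy, differed by 0.10, Cited2, a transcriptional co-regulator, by -0.16, and Cdkn1b, the cell cycle inhibitor p27, by 0.08. The interval of each of these 3 genes covered 0. Leaving out 1 array moved Bnip3 to 0.06 (HFD-father replicate 5), Cited2 to -0.10 (chow-father replicate 5) and Cdkn1b to 0.04 (HFD-father replicate 4). The plot of differences by role shows all lists scattered around 0.

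**Figure D5:**
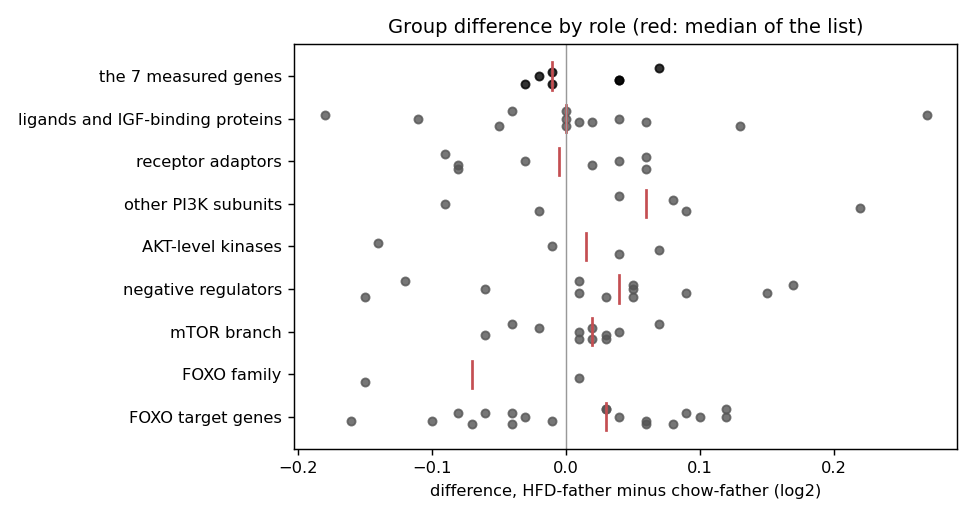
Difference in log2 expression, HFD-father minus chow-father, of the 7 genes (top, black) and of the other pathway genes by role (grey), with the median of each list in red. The 7 genes lie between -0.03 and 0.07, the other lists scatter around 0, and Igfbp5 is the point farthest to the right at 0.27.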

How the data were processed

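Islet RNA from 11 samples was hybridised to single-colour arrays. The authors deposited a gene-level table of log2 values normalized between arrays; the log2 scale was read from the values, and MAS5 and RMA are named, with no role or order, in the submitters' processing notes. Background correction is not given in the sources used here. An exon-level table was not used, since its features are not paired with genes in the files used. Of 27342 probes, 15097 had 1 gene symbol, 323 had several and 11922 were unlisted in the platform table and stay unnamed here. Symbols were updated to RefSeq (GRCr8) through gene numbers for 15067 probes.

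Groups were compared with limma 3.58.1 (lmFit, eBayes, R 4.3.3) on all 11 arrays without covariates, two-sided, with Benjamini-Hochberg adjustment over all 27342 probes and a threshold of 0.05. The fit did not account for the centring per set, so its p-values and intervals may be slightly too small. Exact permutations of group labels within deposited sets (210 splits) served for single genes. Correlations used 100000 resamples over 11 arrays, or every ordering of the 8 arrays of the first set. The resamples over 11 arrays did not keep values within their deposited set. The scripts were tested on simulated data. Figures were drawn with matplotlib 3.10.9. Alternatives were to drop dim probes, to block on replicate number or on deposited set, the first set alone, quantile normalization, median centring, cyclic loess, array weights, an eBayes trend, acinar or endothelial marker means as covariates, averaging all probes of a gene, and leaving out each array in turn. Besides the 7 genes, the text names the 3 genes of lowest unadjusted p in each further pathway list and the 2 genes most correlated with each of the 7. The genes and lists were chosen with earlier results of these data known.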

Additional observations from a re-analysis of the deposited data

Results flagged for a closer look

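Dixon's criterion for a sample far from the rest of its group was applied to the named genes and the marker means in each group (41 items, 82 tests), and 3 values met it, where chance flags about 1 in 20 groups. Crk, a receptor adaptor, reached 9.30 in HFD-father replicate 1, against 9.23 to 9.25 in the other HFD-father arrays. The lymphocyte marker mean reached 1.50 in the same array, against -0.31 to 0.14 in the other HFD-father arrays. The mean of the delta and PP cell markers was -0.30 in chow-father replicate 3, against -0.04 to 0.11 in the other chow-father arrays. None of the 7 insulin and IGF signalling genes, nor the second Insr probe, had such a sample in either group.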

How the results depend on the processing

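In all 23 alternatives the number of the 7 genes called was 0, at adjusted and at unadjusted p under 0.05 with limma, and the lowest adjusted p of any of them was 0.664. Of the other 74 pathway genes 0 were called at an adjusted p in any alternative. Signs of the small differences were not stable. With the acinar marker mean as covariate they were -0.05 (Insr), 0.01 (Igf1r), -0.06 (Pik3r1) and -0.03 (Foxo4), and with the endothelial marker mean -0.08 (Insr), 0.01 (Igf1r), 0.02 (Irs1), -0.15 (Pik3r1), -0.17 (Igfbp5), 0.05 (Socs1) and -0.07 (Foxo4). Median centring gave 0.01 (Igf1r) and 0.02 (Irs1), array weights 0.02 (Irs1) and -0.01 (Foxo4), and the first set alone -0.01 (Gsk3a). With each array left out, differences ran from -0.03 to 0.13 for Insr, -0.04 to 0.01 for Igf1r, -0.03 to 0.03 for Irs1, -0.03 to 0.13 for Pik3r1 and -0.04 to 0.04 for Foxo4. The number of other pathway genes at an unadjusted p under 0.05, which was 1, became 0 without dim probes, 3 with the replicate block, quantile normalization or array weights, 2 and 5 with the acinar and endothelial covariates, and 0 to 3 with an array left out. The cause of these shifts was not tested. Deviations of same-numbered arrays from their group means correlated at 0.33, -0.03, 0.00, -0.02 and -0.32 over numbers 1 to 5. The value for number 5 cannot speak on pairing, since the centring of the second set of 3 arrays ties its arrays together. The numbers were not taken as pairs, and whether they are pairs was not settled. The replicate block gave 0.01 for Irs1 and 0.09 for Insr, and changed no call. The exact permutation p without regard to the sets ran from 0.307 (Akt2) to 0.926 (Irs1). With 5 and 6 arrays, intervals reached from -0.24 to 0.32 for Pik3r1, so a change smaller than these bounds cannot be seen for the most variable genes.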
